A study of Homo sapiens with 20 samples.

Results

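The 10 genes described here encode the machinery that sets and clears the phosphorylation of translation initiation factor eIF2. They are the 4 eIF2 kinases EIF2AK1, EIF2AK2, EIF2AK3 and EIF2AK4, the 2 phosphatase subunits PPP1R15A and PPP1R15B, the substrate EIF2S1, and the eIF2B subunits EIF2B1, EIF2B3 and EIF2B5. They were taken by gene symbol out of 36346 gene names, and each had 1 row in the file of every library. The libraries come from 2 established lines of colorectal cancer cells, HT29 and SW480, harvested 72 h after reverse transfection of a negative control siRNA (SCR) or of siPOLR1D2 or siPOLR1D3, both against POLR1D, a subunit shared by RNA polymerases I and III. HT29 carries a focal amplification at 13q12.2, where POLR1D lies, and SW480 carries a gain of the whole chromosome, per the study's methods and text. HT29 was represented by 4 SCR, 2 siPOLR1D2 and 2 siPOLR1D3 libraries, and SW480 by 6 SCR, 3 siPOLR1D2 and 3 siPOLR1D3 libraries. Every group consisted of parental cells of the line that received an siRNA, and no untransfected library was analysed here.

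When eIF2α, the product of EIF2S1, is phosphorylated, eIF2 binds tightly to its exchange factor eIF2B and blocks it, so that most translation slows while a few transcripts such as ATF4 are translated better. Each kinase senses its own kind of trouble. EIF2AK1 (HRI) responds to heme shortage and mitochondrial stress, EIF2AK2 (PKR) to double-stranded RNA, EIF2AK3 (PERK) to unfolded protein in the endoplasmic reticulum, and EIF2AK4 (GCN2) to amino acid shortage and stalled ribosomes. Both phosphatase subunits bring protein phosphatase 1 to eIF2α. PPP1R15B (CReP) is made constitutively, whereas PPP1R15A (GADD34) is induced by the same response and closes a negative feedback loop. The kinases are activated as proteins, so a transcript level is no measure of kinase activity, and phosphorylation was not measured here.

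All values are read counts normalized by the authors with DESeq2, within each cell line, so levels were compared within a line only. Between 13500000 and 27600000 reads per library were estimated, and the estimate for HT29 SCR was 14200000 to 21000000 against 13500000 to 22800000 for the silenced HT29 libraries. The 7 epithelial marker genes summed to between 139152 and 270008 per library. The sums were at most 84.5 for 4 leukocyte, 143 for 3 endothelial and 730.5 for 3 fibroblast marker genes. CDX2, 1 of the 7, was low. In HT29 it was at most 0.46 in SCR and 3.96 to 7.91 in silenced libraries, too low to be tested. In SW480 it was 45.5 to 169 in SCR and 46.5 to 224 in silenced libraries, where the fibroblast marker COL1A1 was 75.5 to 551 and 94.6 to 700. Another epithelial marker, KRT19, passed as higher in silenced SW480 cells (log2 0.70). In HT29, SCR replicate 1 stood apart from the other libraries on the first principal component, followed by SCR replicate 2. In SW480 the libraries fell on 2 sides of that component, which the labels do not name. The siPOLR1D3 libraries and siPOLR1D2 replicate 3 lie on the same side, and siPOLR1D2 replicates 1 and 2 lie on the other. This split therefore enters every SW480 comparison between the siRNAs. POLR1D itself was lower in every silenced library than in every SCR library of its line, with a log2 fold change of -0.72 in HT29 (limma adjusted p = 0.355) and -1.04 in SW480 (limma adjusted p = 0.000991). The study's own DESeq2 analysis called POLR1D lower in both lines. Nothing in the labels says that replicates were separate cultures, so p values measure the spread between these libraries.

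The silenced SW480 cells had less of the feedback gene and little change in the sensors. PPP1R15A fell from a normalized read count of 2392 ± 1158 (SD, n = 6) to 560.0 ± 62.3 (SD, n = 6), and EIF2AK4 fell from 3135 ± 250 (SD, n = 6) to 2478 ± 138 (SD, n = 6). The other 8 members did not pass the threshold of an adjusted p under 0.05. Thus 2 of 10 members were lower and 0 were higher in SW480, where 6.73% of all 15019 genes tested were called and 4.29% were called lower. The median log2 fold change of the 10 members was -0.21, against 0.01 for all genes tested. In HT29, 0 of 10 members passed and 0% of the 13274 genes tested were called by limma. At an unadjusted p under 0.05 there were 3 members in HT29 (PPP1R15A, PPP1R15B and EIF2AK3), all lower, and 10.7% of all genes tested (6.05% lower). Their median log2 fold change in HT29 was -0.10 over the 10 members, against 0.0002 over all genes tested. In bulk RNA, a lower transcript level per cell and a smaller share of cells that carry the transcript cannot be told apart.

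**Figure D1:**
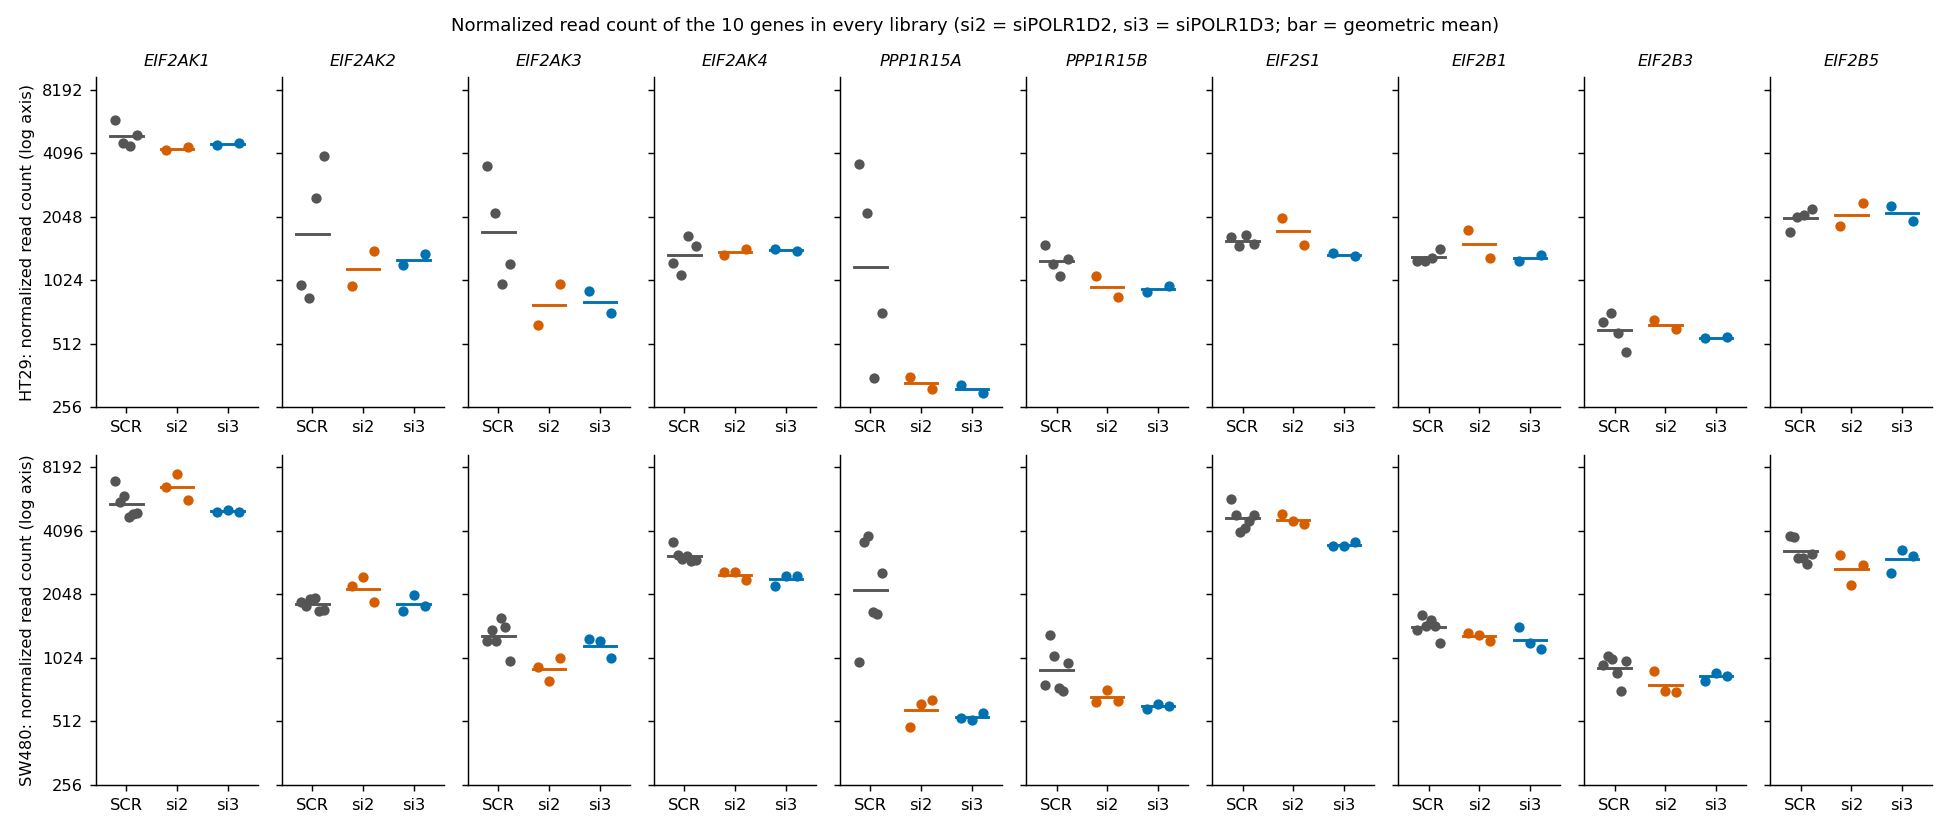
Normalized read count (log axis) of the 10 genes in each library of HT29 (top) and SW480 (bottom), by siRNA, with points for libraries and a bar for the geometric mean. In SW480 the 6 silenced libraries lie between 483 and 647 for PPP1R15A, all below the 6 SCR libraries, while the HT29 SCR libraries of PPP1R15A, EIF2AK3 and EIF2AK2 are spread far wider than the silenced ones.

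PPP1R15A lies on chromosome 19 of GRCh38 from 48872392 to 48876057, on the plus strand. It is one of the genes that the study itself named from these libraries, so its direction here is not independent evidence. In SW480, the SCR libraries had read counts of 974, 3605, 3857, 1688, 1651 and 2579 in replicates 1 to 6. The siPOLR1D2 libraries had 483, 618 and 647, and the siPOLR1D3 libraries had 533, 519 and 560 in replicates 1 to 3. The lowest SCR library, replicate 1, was still above the highest silenced library. On the log2 scale the change was -1.94 (SE 0.28, limma adjusted p = 0.00275), and the exact permutation test gave the smallest p that 6 libraries against 6 allow, 0.00216 (2-sided). In SW480, 2.88% of all genes tested were lower in every silenced library than in every SCR library. The spread also differed between the arms, with a coefficient of variation of 48.4% over the SCR libraries and 11.1% over the silenced ones.

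Both siRNAs lowered PPP1R15A in SW480. It was 3.70-fold lower with siPOLR1D2 (SE 0.35 on the log2 scale, limma adjusted p = 0.00782, with 5% of genes called lower) and 3.99-fold lower with siPOLR1D3 (SE 0.35, limma adjusted p = 0.00797, with 4.45% of genes called lower). The 2 contrasts share the SCR libraries. siPOLR1D3 against siPOLR1D2 gave -0.11 with a 95% interval from -0.99 to 0.77, so differences within those bounds were not excluded with 3 libraries each. The siPOLR1D3 call was lost without siPOLR1D3 replicate 1 (limma adjusted p = 0.0565). The siPOLR1D2 call was lost when the replicate number was added to the fit (limma adjusted p = 0.0671). That fit compares with SCR replicates 1 to 3 only, since SCR replicates 4 to 6 have no silenced library of their number. Within the 5 SW480 libraries on one side of the first principal component, the pooled log2 fold change was -2.12 (limma adjusted p = 0.314), and within the other 7 it was -1.78 (limma adjusted p = 0.000485).

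In HT29, PPP1R15A read counts were 3645, 2141, 355 and 716 in SCR replicates 1 to 4. They were 356 and 314 with siPOLR1D2 and 327 and 300.4 with siPOLR1D3. SCR replicates 1 and 2 were several times higher than any other library, whereas SCR replicate 3 lay within the range of the silenced libraries. PPP1R15A differed by -1.87 on the log2 scale (SE 0.61) and did not pass the threshold (limma adjusted p = 0.408), with an exact permutation p of 0.0571, where 4 libraries against 4 allow 0.0286 at the smallest. The study's own DESeq2 analysis did call PPP1R15A lower in HT29, at an adjusted p under 0.05, so this call differs with the method. With SCR replicates 3 and 4 alone the log2 difference was -0.64 (limma adjusted p = 0.36), a comparison added after the data were seen. Subtracting the HT29 value from the SW480 value left -0.07, with a 95% interval from -1.42 to 1.28 (limma adjusted p = 0.987), so these libraries do not show the lines to differ and leave room for a wide difference.

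The promoters of the 2 phosphatase subunits are shown because the pair differs in how each gene is regulated, and a stretch of the EIF2AK2 promoter because that kinase is itself interferon-inducible. RefSeq promoter windows on GRCh38.p14, from 250 bases before to 50 bases after the start site, were matched for 9 of the 10 members by symbol, all except EIF2AK1. They were searched on both strands for the CRE (TGACGTCA), the C/EBP-ATF element bound by ATF4 (TGATGNAA), an interferon-stimulated response element (2 GAAA motifs spaced by 2 bases of any kind) and the ER stress element (CCAAT and CCACG spaced by 9 bases of any kind). Of 34943 windows, 1.84% hold the CRE, 3.62% the C/EBP-ATF element, 3.57% the interferon element and 0.0773% the ER stress element. The bases below end before the first start annotated in GENCODE or RefSeq for the phosphatase subunits, and capitals mark the CRE in PPP1R15A (chr19:48872171-48872391, plus strand), the C/EBP-ATF element in PPP1R15B (chr1:204411818-204412067, minus strand) and the interferon element in EIF2AK2 (chr2:37156967-37156996, minus strand).
PPP1R15A: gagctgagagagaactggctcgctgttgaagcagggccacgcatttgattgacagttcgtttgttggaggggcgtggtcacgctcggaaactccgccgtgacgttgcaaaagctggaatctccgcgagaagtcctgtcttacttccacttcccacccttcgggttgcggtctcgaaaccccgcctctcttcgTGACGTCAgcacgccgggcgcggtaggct
PPP1R15B: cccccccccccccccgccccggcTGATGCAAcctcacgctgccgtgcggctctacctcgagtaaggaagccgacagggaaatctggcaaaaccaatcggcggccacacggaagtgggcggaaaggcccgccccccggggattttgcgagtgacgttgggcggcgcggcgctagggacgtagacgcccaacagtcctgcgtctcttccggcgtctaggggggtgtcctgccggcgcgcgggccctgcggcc
EIF2AK2: agtccaagggGAAAACGAAActgagaacca

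The CRE in PPP1R15A spans positions -58 to -51 from its RefSeq start site, the C/EBP-ATF element in PPP1R15B spans -227 to -220, and the interferon element in EIF2AK2 spans -6 to 3. No other of the 9 windows held any of these 4 motifs, including that of EIF2AK3. The windows of EIF2S1 and EIF2B5 lie wholly after the first annotated start of the gene, so no bases before that start were searched for them. The 5-base core TGACG, which the CRE contains, occurs in the windows of PPP1R15A, PPP1R15B, EIF2B1 and EIF2B3 and in 24.5% of all windows. These are matches of letters, and binding was not measured.

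PPP1R15B, the constitutive phosphatase subunit, lies on chromosome 1 from 204403387 to 204411791, on the minus strand. Its SW480 read counts were 766, 1307, 1048, 736, 713 and 971 in SCR replicates 1 to 6, against 635, 724 and 640.0 with siPOLR1D2 and 588, 620.4 and 608 with siPOLR1D3. In 5 of 6 silenced libraries it was below every SCR library, and the sixth, siPOLR1D2 replicate 2, lay just above the lowest SCR library. Its log2 fold change was -0.51 (SE 0.15) with an adjusted p of 0.0531 from limma, just short of the threshold, and the exact permutation test gave p = 0.00433 (2-sided). It passed without SCR replicate 1 (limma adjusted p = 0.0417) or without SCR replicate 5 (limma adjusted p = 0.0435). By siRNA the log2 fold change in SW480 was -0.44 with siPOLR1D2 (limma adjusted p = 0.146) and -0.57 with siPOLR1D3 (limma adjusted p = 0.072). In HT29, PPP1R15B had read counts of 1513, 1231, 1073 and 1288 in SCR replicates 1 to 4. With siPOLR1D2 it had 1075 and 853, and with siPOLR1D3 it had 906 and 961. The lowest SCR library, replicate 3, lay level with the highest silenced library. The HT29 log2 fold change was -0.42 (SE 0.13, limma adjusted p = 0.408), with an exact permutation p of 0.0571.

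The log2 ratio of PPP1R15A to PPP1R15B within a library differed by -1.44 in silenced SW480 cells, and the groups did not overlap (0.35 to 1.88 in SCR, -0.39 to 0.02 in silenced libraries). In HT29 the same ratio was 1.27, 0.80, -1.60 and -0.85 in SCR replicates 1 to 4 and lay between -1.67 and -1.44 in silenced libraries. These ratios compare libraries and not the 2 genes, since transcript length enters the level of each.

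The 4 kinases differed in which line and which libraries set them apart. EIF2AK4, the sensor of amino acid shortage on chromosome 15 (39934146 to 40035591, plus strand), was the only kinase called lower in SW480. Its SCR libraries had read counts of 3620, 3153, 3007, 3105, 2960 and 2965 in replicates 1 to 6. The siPOLR1D2 libraries had 2617, 2607 and 2401, and the siPOLR1D3 libraries had 2248, 2504 and 2493. All 6 silenced libraries were below all 6 SCR libraries, as in 2.88% of all SW480 genes tested, and the step was small and even. This amounted to -0.34 on the log2 scale (SE 0.079, limma adjusted p = 0.0245), with an exact permutation p of 0.00216 (2-sided), the smallest possible. By siRNA it was -0.30 with siPOLR1D2 (SE 0.092, limma adjusted p = 0.0654) and -0.37 with siPOLR1D3 (SE 0.092, limma adjusted p = 0.0325). The pooled call was lost without siPOLR1D2 replicate 3 (limma adjusted p = 0.0515), siPOLR1D3 replicate 1 (limma adjusted p = 0.0582) or siPOLR1D3 replicate 3 (limma adjusted p = 0.0523), and also with no filter on low values (limma adjusted p = 0.0517). The siPOLR1D3 call was lost without SCR replicate 4 (limma adjusted p = 0.0507) or without any one siPOLR1D3 library (limma adjusted p = 0.0936 to 0.183).

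In HT29, EIF2AK4 read counts were 1233, 1083, 1655 and 1488 in SCR replicates 1 to 4 and between 1345 and 1446 in the silenced libraries, inside the SCR range. Its log2 fold change there was 0.07 with a 95% interval from -0.24 to 0.38 (limma adjusted p = 0.86). The SW480 change minus the HT29 change was -0.40 (SE 0.15, unadjusted p = 0.0118), which did not pass after adjustment (limma adjusted p = 0.398, with 0.0393% of 12724 genes called).

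EIF2AK3, the endoplasmic reticulum sensor on chromosome 2 (88556741 to 88627576, minus strand), was higher in 2 HT29 SCR libraries than in any other. Its HT29 read counts were 3578, 2126, 985 and 1225 in SCR replicates 1 to 4. With siPOLR1D2 they were 630 and 984, and with siPOLR1D3 they were 913 and 722. All 4 silenced libraries were below all 4 SCR libraries, but the nearest pair, SCR replicate 3 and siPOLR1D2 replicate 2, differed by about 1 count, and 4.17% of all HT29 genes tested separated in this direction. Silencing went with -1.12 on the log2 scale (SE 0.36, limma adjusted p = 0.408), the exact permutation test gave its smallest p of 0.0286, and with SCR replicates 3 and 4 alone the value was -0.46 (limma adjusted p = 0.389). By siRNA it was -1.14 with siPOLR1D2 and -1.10 with siPOLR1D3 in HT29, with an adjusted p from limma of 0.837 and 0.629.

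In SW480, EIF2AK3 read counts were 1235, 1383, 1235, 1574, 1431 and 986 in SCR replicates 1 to 6. With siPOLR1D2 they were 927, 792 and 1018, and with siPOLR1D3 they were 1252, 1237 and 1019. The siPOLR1D3 libraries lay within the SCR range and 2 of 3 siPOLR1D2 libraries lay below it. The pooled log2 fold change was -0.33 (SE 0.14, limma adjusted p = 0.166). It was -0.51 with siPOLR1D2 (limma adjusted p = 0.0511) and -0.15 with siPOLR1D3 (limma adjusted p = 0.538), and the difference between the siRNAs, 0.36 with a 95% interval from -0.01 to 0.73, did not pass (limma adjusted p = 0.239). The siPOLR1D2 value passed without SCR replicate 1 (limma adjusted p = 0.0489) or SCR replicate 6 (limma adjusted p = 0.0267), and when genes had to reach a value of 50 (limma adjusted p = 0.0441). The SW480 change minus the HT29 change was 0.79 (95% interval 0.04 to 1.54, limma adjusted p = 0.553).

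EIF2AK2, the double-stranded RNA sensor on chromosome 2 (37099210 to 37157065, minus strand), had the opposite HT29 libraries high. Its read counts were 976, 849, 2521 and 3981 in HT29 SCR replicates 1 to 4. They were 961 and 1405 with siPOLR1D2 and 1207 and 1365 with siPOLR1D3. SCR replicates 3 and 4 were thus above every silenced library and SCR replicates 1 and 2 were near the lowest one. The difference was -0.48 on the log2 scale (95% interval -1.47 to 0.51, limma adjusted p = 0.684), and -1.37 with SCR replicates 3 and 4 alone (limma adjusted p = 0.1). In SW480 the kinase lay between 1703 and 1966 in SCR libraries and between 1701 and 2463 in silenced libraries, with a log2 fold change of 0.13 (limma adjusted p = 0.483). It was 0.25 with siPOLR1D2 (limma adjusted p = 0.169) and 0.0050 with siPOLR1D3 (limma adjusted p = 0.983).

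EIF2AK1, the heme-regulated kinase on chromosome 7 (6022244 to 6059230, minus strand), did not pass in any comparison. In HT29 its read count was 5895, 4591, 4423 and 4980 in SCR replicates 1 to 4 and 4250 to 4569 in silenced libraries (log2 fold change -0.16, 95% interval -0.41 to 0.08, limma adjusted p = 0.581). In SW480 it ranged from 4782 to 7047 around a median of 5277 in SCR libraries and from 5013 to 7587 around 5407 in silenced ones (log2 fold change 0.07, 95% interval -0.21 to 0.35, limma adjusted p = 0.79). The siPOLR1D2 libraries had 6613, 7587 and 5702 and the siPOLR1D3 libraries had 5048, 5112 and 5013, so these 2 groups did not overlap, as in 17.1% of genes tested in this direction. That difference, -0.38 on the log2 scale (95% interval -0.71 to -0.05), did not pass (limma adjusted p = 0.172, with 3.32% of genes called). The 2 siPOLR1D2 libraries that were highest, replicates 1 and 2, lie on the other side of the first principal component from all siPOLR1D3 libraries, and the part of that split in the difference was not tested.

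**Figure D2:**
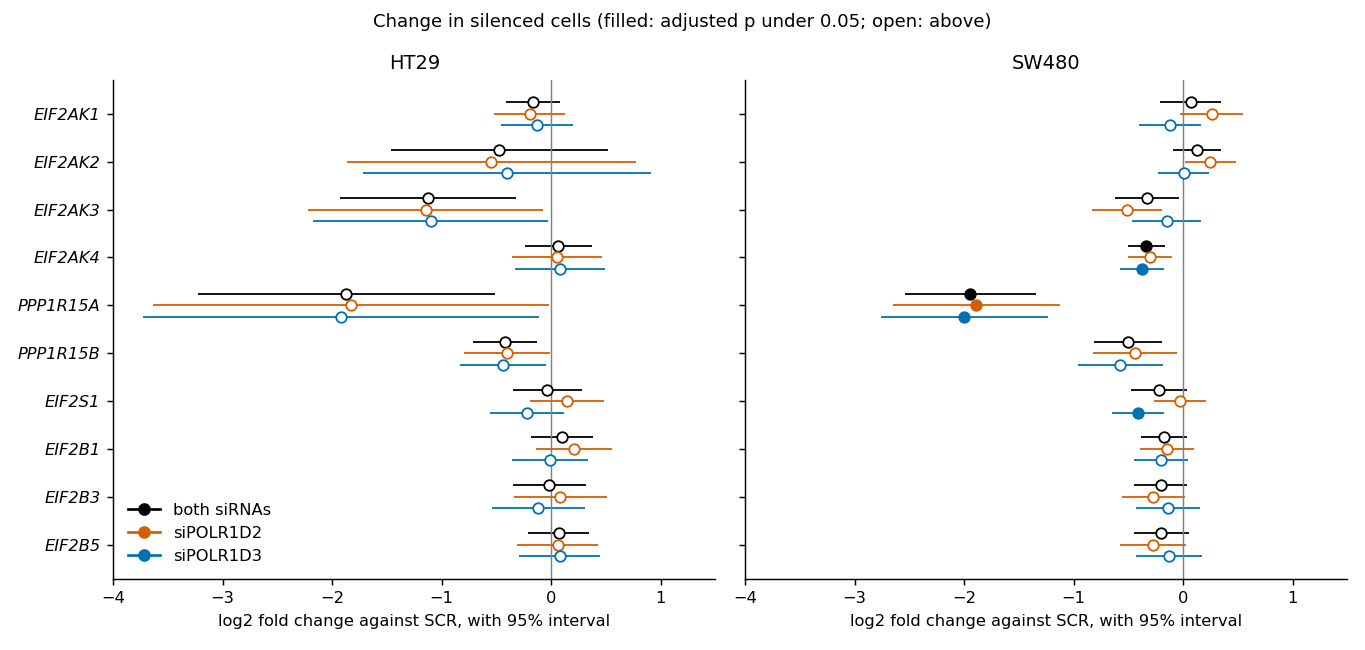
log2 fold change against SCR with its 95% interval (horizontal axis) for the 10 genes in HT29 (left) and SW480 (right), for both siRNAs pooled and for each siRNA; filled points have an adjusted p under 0.05. The filled points are PPP1R15A in the 3 SW480 comparisons, EIF2AK4 pooled and with siPOLR1D3, and EIF2S1 with siPOLR1D3, and the HT29 intervals of PPP1R15A, EIF2AK3 and EIF2AK2 are wide.

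Set against the sensors library by library, the feedback gene differed by more than any kinase. The log2 ratio of PPP1R15A to a kinase, taken within a library, differed between silenced and SCR SW480 cells by -2.01 for EIF2AK1, -2.07 for EIF2AK2, -1.61 for EIF2AK3 and -1.61 for EIF2AK4. For EIF2AK1 the ratio lay between -2.85 and -0.63 in SCR libraries and between -3.77 and -3.14 in silenced ones. For EIF2AK2 it lay between -0.95 and 1.00 in SCR and between -2.21 and -1.54 in silenced libraries. Neither pair of ranges overlapped. For EIF2AK3 the ranges, -0.34 to 1.64 in SCR and -1.25 to -0.36 in silenced libraries, only just failed to meet, and for EIF2AK4 1 of 6 silenced libraries reached the lowest SCR library (-1.89 in both). That lowest SCR library was replicate 1 for every kinase.

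In HT29 the same differences were -1.71 for EIF2AK1, -1.40 for EIF2AK2, -0.75 for EIF2AK3 and -1.94 for EIF2AK4, and for every kinase the ranges overlapped. The ratio to EIF2AK3 was 0.03 and 0.01 in SCR replicates 1 and 2, and -1.47 and -0.77 in SCR replicates 3 and 4. It was between -1.65 and -0.82 in silenced libraries. PPP1R15A and EIF2AK3 were thus both high in SCR replicates 1 and 2, and their ratio differed least between the arms. The ratio to EIF2AK2 was 1.90 and 1.33 in SCR replicates 1 and 2 against -2.83 and -2.47 in SCR replicates 3 and 4, so the silenced libraries (-2.18 to -1.43) lay between the 2 pairs. With SCR replicates 3 and 4 alone the difference was 0.74 for EIF2AK2, the opposite direction, and between -0.55 and -0.18 for the other 3 kinases.

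**Figure D3:**
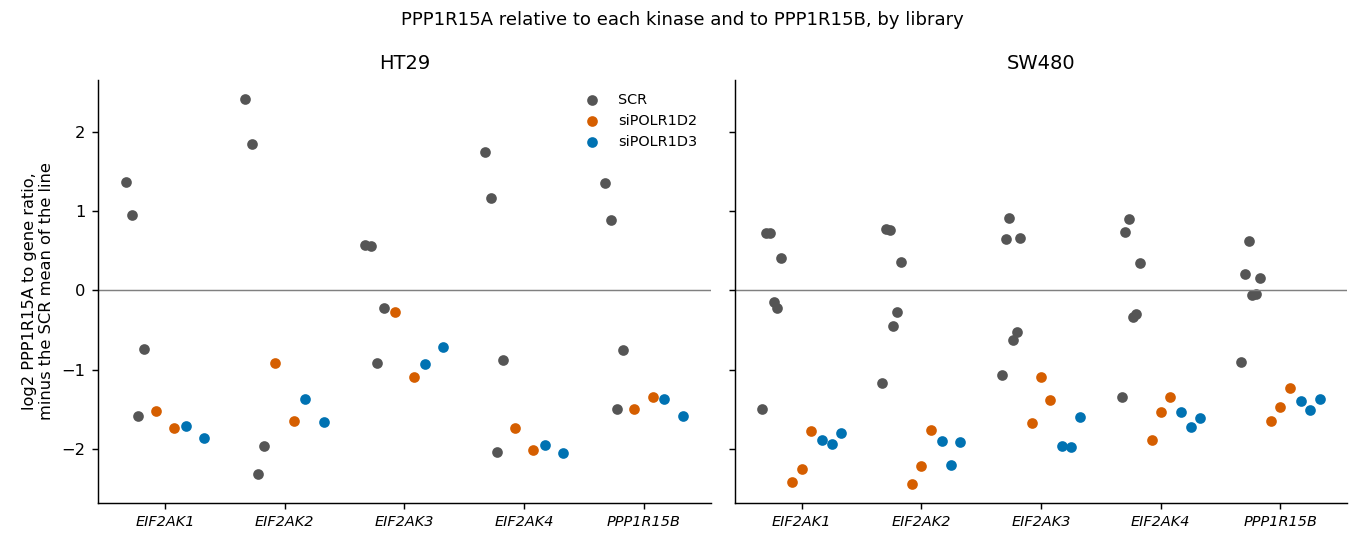
log2 ratio of PPP1R15A to each kinase and to PPP1R15B (vertical axis, minus the SCR mean of the line) in each library of HT29 (left) and SW480 (right), colored by siRNA. In SW480 the silenced points lie below the SCR points except for EIF2AK4, where 1 reaches the lowest SCR point, and in HT29 SCR replicate 3 mixes with the silenced points and SCR replicate 4 lies above them, except for EIF2AK2, where both fall below them.

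EIF2S1, which encodes the phosphorylated subunit eIF2α, lies on chromosome 14 from 67359997 to 67386516, on the plus strand. In SW480 its read counts were 5793, 4867, 4049, 4238, 4566 and 4884 in SCR replicates 1 to 6. They were 4898, 4534 and 4425 with siPOLR1D2, and 3455, 3480 and 3642 with siPOLR1D3. The siPOLR1D3 libraries were below all other SW480 libraries, where 10.9% of genes tested had all siPOLR1D3 libraries below all SCR libraries, and the siPOLR1D2 libraries lay within the SCR range. With siPOLR1D3 the log2 fold change was -0.42 (SE 0.11, limma adjusted p = 0.0425, with 4.45% of genes called lower), and with siPOLR1D2 it was -0.03 (95% interval -0.27 to 0.21, limma adjusted p = 0.911). The direct comparison of the siRNAs gave -0.39 (SE 0.13) and did not pass (limma adjusted p = 0.107). Replicates 1 and 2 of siPOLR1D2 lie across the first principal component from the siPOLR1D3 libraries, and the part of that split in these values was not tested. The siPOLR1D3 call held in 4 of 12 fits that each left out 1 library, and was lost without SCR replicate 2, 5 or 6, siPOLR1D2 replicate 1 or 2, or any one siPOLR1D3 library (limma adjusted p = 0.0551 to 0.18). Pooled over the siRNAs, EIF2S1 did not pass in SW480 (log2 fold change -0.22, limma adjusted p = 0.28).

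In HT29, EIF2S1 read counts were 1653, 1483, 1680 and 1519 in SCR replicates 1 to 4. They were 2024 and 1511 with siPOLR1D2, and 1381 and 1333 with siPOLR1D3. Both siPOLR1D3 libraries were below the SCR libraries, as were those of 11.5% of all HT29 genes tested. The siPOLR1D3 value was -0.22 on the log2 scale (limma adjusted p = 0.735, exact permutation p = 0.133, where 4 against 2 libraries allow 0.0667 at the smallest). The difference between the siRNAs was -0.37 (95% interval -0.76 to 0.03, limma adjusted p = 1, where 1.56% of genes had an unadjusted p under 0.05 and 0 passed), and the pooled log2 fold change was -0.04 (limma adjusted p = 0.929).

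The 3 eIF2B members encode the regulatory alpha subunit (EIF2B1, chromosome 12, 123620406 to 123633766, minus strand), the gamma subunit (EIF2B3, chromosome 1, 44850522 to 44986722, minus strand) and the catalytic epsilon subunit (EIF2B5, chromosome 3, 184135038 to 184146112, plus strand). In SW480 their log2 fold changes were close together, at -0.18 for EIF2B1 (95% interval -0.38 to 0.03), -0.20 for EIF2B3 (95% interval -0.45 to 0.04) and -0.20 for EIF2B5 (95% interval -0.45 to 0.05). None passed, with an adjusted p from limma between 0.296 and 0.323. EIF2B1 had a median of 1443 (range 1201 to 1634) in SCR and 1271 (range 1124 to 1427) in silenced libraries. EIF2B3 had 970.7 (range 710 to 1044) and 822 (range 707 to 886), and EIF2B5 had 3106 (range 2854 to 3881) and 2966 (range 2257 to 3329). All 3 ranges overlapped.

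In HT29 the eIF2B members differed by less than their spread. EIF2B1 read counts were 1264 to 1439 in SCR and 1268 to 1774 in silenced libraries (log2 fold change 0.10, limma adjusted p = 0.763). EIF2B3 was 470 to 718 in SCR and 547 to 666 in silenced libraries (log2 fold change -0.02, limma adjusted p = 0.973), and EIF2B5 was 1733 to 2221 and 1845 to 2390 (log2 fold change 0.07, limma adjusted p = 0.834). The 95% intervals of the 3 ran from -0.35 to 0.38 in all, so changes within those bounds were not excluded. Among the subunits outside the 10 genes, EIF2S2, the beta subunit of eIF2, passed in SW480 with a log2 fold change of -0.46 (SE 0.11, limma adjusted p = 0.0232), which was -0.28 with siPOLR1D2 (limma adjusted p = 0.0962) and -0.65 with siPOLR1D3 (limma adjusted p = 0.00383). EIF2S3, EIF2B2 and EIF2B4 did not, with log2 fold changes between -0.20 and 0.19.

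Some members share annotated exonic bases with a gene on the opposite strand, and the sources used here do not say whether strand was used in counting. EIF2B1 shares 536 bases (14.8% of its exonic bases) with DDX55, EIF2AK3 shares 781 bases (14.4%) with an antisense RNA, EIF2B3 shares 347 bases (10.2%) with the pseudogene CCNB1IP1P1, EIF2AK1 shares 532 bases (9.59%) with AIMP2 and EIF2S1 shares 269 bases (4.76%) with ATP6V1D. PPP1R15A, PPP1R15B and EIF2AK4 share none.

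Genes around the pathway were read from lists. Of 14 partners of the kinases and phosphatases, 1 was lower in SW480 and 0 were higher with the siRNAs pooled. Among all genes tested, 4.29% were called lower and 6.73% in either direction, so 1 of 14 is near that share. The partner called was NCK1, an adaptor that binds EIF2AK3 and PPP1R15B, with a log2 fold change of -0.45 (SE 0.13, limma adjusted p = 0.0475). The next 3 by p did not pass: TARBP2, which restrains EIF2AK2 (0.57, limma adjusted p = 0.074), BZW1 (-0.30, limma adjusted p = 0.0756) and PPP1CC, a catalytic subunit of protein phosphatase 1 (0.31, limma adjusted p = 0.112). The median of the list was -0.06. By siRNA, TARBP2 passed as higher with siPOLR1D2 (0.86, limma adjusted p = 0.0124) and BZW1 as lower with siPOLR1D3 (-0.46, limma adjusted p = 0.0122), whereas NCK1 passed with neither (limma adjusted p = 0.0707 and 0.118). Between the siRNAs, 1 partner passed, EIF5, lower with siPOLR1D3 (-0.67, limma adjusted p = 0.0426), where 3.32% of all genes tested were called.

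Most targets of ATF4, downstream of eIF2α phosphorylation, were lower in silenced SW480 cells, as PPP1R15A was. Among all genes tested in SW480, 4.29% were called lower with the siRNAs pooled, 5% with siPOLR1D2 and 4.45% with siPOLR1D3. Of 21 genes of the ATF4 arm 15 were lower and 0 were higher, with a median log2 fold change of -1.22, and 4 were lower with siPOLR1D2 and 17 with siPOLR1D3. They included ASNS, asparagine synthetase (-1.79, SE 0.23, limma adjusted p = 0.00166), PHGDH, which opens serine synthesis (-1.22, SE 0.20, limma adjusted p = 0.00564), ATF4 itself (-0.81, SE 0.14, limma adjusted p = 0.00649) and CTH, which makes cysteine (-1.46, SE 0.27, limma adjusted p = 0.0096). Of 12 listed genes of the endoplasmic reticulum stress response, 5 were lower and 0 higher in SW480, with a median of -0.50. Those named by p were ERN1, the parallel sensor IRE1 (-1.71, limma adjusted p = 0.00326), HERPUD1 and EDEM1 of ER-associated degradation (-1.29 and -1.08, limma adjusted p = 0.00725 and 0.008), and XBP1, the target of IRE1 (-0.88, limma adjusted p = 0.0111). Several of these genes were named by the study from these libraries, so the counts are not independent evidence of direction. In HT29, 0 of 19 and 0 of 12 genes of these lists passed by limma, with medians of -1.53 and -0.92. At an unadjusted p under 0.05, 15 and 3 of them were lower and 1 of the first list was higher. Among all HT29 genes tested, 6.05% were lower at that p.

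In HT29, PPP1R15A and EIF2AK3 were high in the same SCR libraries as genes of these lists. DDIT3, a transcription factor made in the ATF4 arm, had read counts of 2061, 1175, 102 and 231 in SCR replicates 1 to 4 and 77.3 to 94.1 in silenced libraries. HSPA5, the endoplasmic reticulum chaperone, had 62198, 14831, 7757 and 7139 in SCR replicates 1 to 4 and 6896 to 7419 in silenced libraries. Both were highest in SCR replicates 1 and 2, as were PPP1R15A and EIF2AK3. MX1, an interferon-stimulated antiviral GTPase, was high in the other pair, with 112, 56.5, 1416 and 3525 in SCR replicates 1 to 4 and 94.8 to 423 in silenced libraries. EIF2AK2 was high in the same 2 SCR libraries. Of the 12 interferon-stimulated genes, 0 passed in either line with the siRNAs pooled, with a median log2 fold change of -0.78 in HT29 and -0.09 in SW480. At an unadjusted p under 0.05 there was 1 lower in HT29, where 6.05% of all genes tested were lower, and 1 lower and 1 higher in SW480. By siRNA, 1 passed as higher in SW480 with siPOLR1D2, the RNA sensor DDX58 (log2 1.33, limma adjusted p = 0.00419), where 1225 of 15019 genes were called. DDX58 was also lower with siPOLR1D3 than with siPOLR1D2 (-1.95, limma adjusted p = 0.00437), where 3.32% of genes were called. With siPOLR1D3, 1 passed as higher, IFIT1 (1.66, limma adjusted p = 0.0436), where 6.6% of genes were called. These counts of 1 in 12 are therefore not a result about the list. The part of the genes of these lists in the EIF2AK2 and EIF2AK3 values was not tested.

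In SW480 the SCR library with the least PPP1R15A, replicate 1, was also low in DDIT3 (228, against 377 to 1309 in the other SCR libraries and 135 to 311 in silenced ones) and in HERPUD1 (1069, against 1925 to 2889 in the other SCR libraries). On the mean log2 level of the ATF4 arm it was at 8.99, inside the silenced range of 8.53 to 9.46, whereas the other 5 SCR libraries lay between 9.89 and 10.6. The same library had the most EIF2AK4, EIF2AK1 and EIF2S1 of the SCR libraries. Without it the log2 fold change of PPP1R15A was -2.17 and that of EIF2AK4 was -0.30 (limma adjusted p = 0.0268).

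**Figure D4:**
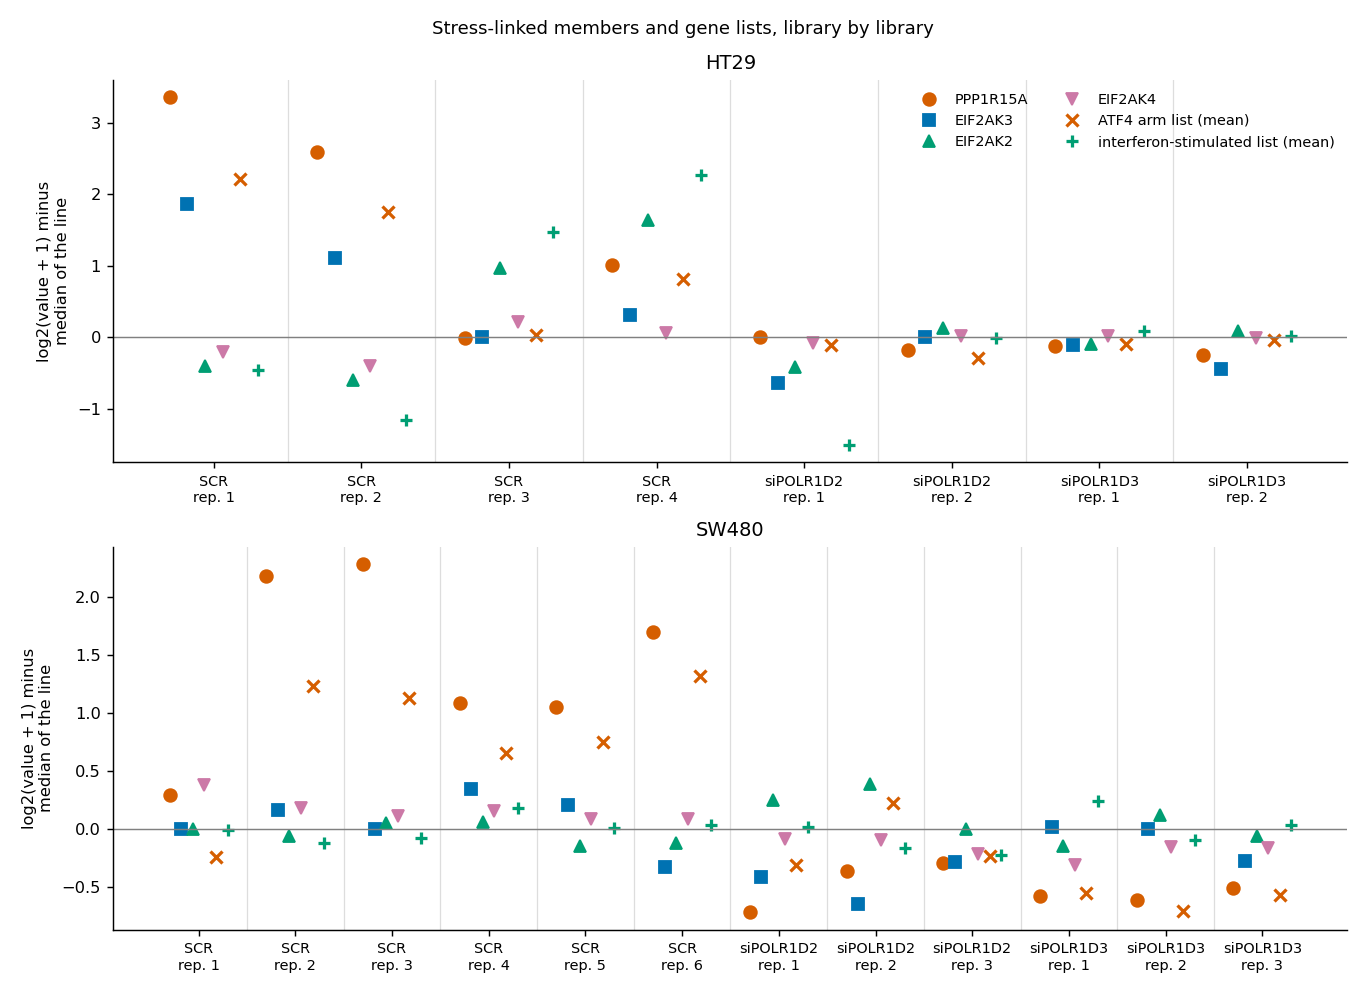
log2 level in each library minus the median of its line (vertical axis) for 4 members and for the mean of the ATF4 arm and interferon-stimulated lists, in HT29 (top) and SW480 (bottom). In HT29, SCR replicates 1 and 2 are high in PPP1R15A, EIF2AK3 and the ATF4 arm, and SCR replicates 3 and 4 are high in EIF2AK2 and the interferon list; in SW480 the mean log2 level of the interferon list stays between 6.49 and 6.95.

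Across libraries, the genes most like PPP1R15A among 12723 were found by the mean of Pearson's r within 8 HT29 and within 12 SW480 libraries, given as a description since the points share the SCR libraries that were high or low. They were RNF41, a ubiquitin ligase (mean r 0.98), DDIT3 (0.98), HERPUD1 (0.96), MPZL3 (0.96) and CTH (0.96). PPP1R15B ranked 76th of these genes, with r of 0.87 in HT29 and 0.91 in SW480. EIF2AK3 ranked 680th (r 0.96 in HT29, 0.47 in SW480). All other members ranked below it. EIF2AK4 had r of opposite sign in the 2 lines, -0.74 in HT29 and 0.68 in SW480. So did EIF2AK1 (0.80 and -0.20), EIF2B1 (-0.34 and 0.54) and EIF2B5 (-0.52 and 0.36), in the same order of lines. EIF2AK2 had -0.31 and -0.36.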

How the data were processed

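The authors captured the coding transcriptome (TruSeq RNA Exome, paired-end reads), quantified it with kallisto 0.44.0 after FastQC 0.11.5 and normalized gene-level read counts with DESeq2 1.24.0 (hg38, per the submitters' processing notes). The annotation is not given in the sources used here. The deposited values are this normalized signal per gene and library. They are not whole (17.6% to 43.7% of low values are multiples of 1 read, within 0.01), so no count test was used. Rows sharing a symbol were summed.

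limma 3.58.1 (R 4.3.3, eBayes with trend) was fitted on log2(value + 1) over all genes that reached 10 in as many libraries as the smaller arm holds, with Benjamini-Hochberg adjustment and a threshold of 0.05. Fold changes on this scale understate low genes. Single members were also compared by exact permutation tests (2-sided). The fit was tested on simulated data. Reads per library were estimated from the commonest low value. No library was a copy of another library of its group, and pairs across groups were not compared. The members and gene lists were chosen with earlier results of these data known. Named are the 10 members, POLR1D, up to 4 genes per list by adjusted p in SW480, and the 5 genes most like PPP1R15A. DDX58, EIF5, HSPA5 and MX1 were named after their values were seen. Positions are from GENCODE 29. Pearson's r carries no p.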

Additional observations from a re-analysis of the deposited data

Results flagged for a closer look

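Each member and POLR1D was tested for a library far from the rest in the SCR and the silenced arm of each line, 44 groups of 4 or 6 libraries, and 1 was flagged, where chance flags about 1 in 20. EIF2AK4 in SW480 SCR replicate 1 had a read count of 3620, and its distance from the next SCR library was 0.707 of the range of the 6. The difference in response between the lines passed for 0 of 10 members (limma). At an unadjusted p under 0.05 there were 2 of them, EIF2AK4 and EIF2AK3. They ranked 377th and 919th by p among the 12724 genes tested, so at least 919 genes reached that p. Without SW480 SCR replicate 1 the log2 fold change of EIF2AK4 in SW480 was -0.30.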

How the results depend on the processing

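PPP1R15A was lower in silenced SW480 cells under all 28 settings, the reported one included, and passed in 26, EIF2AK4 passed in 21 and PPP1R15B in 7. In HT29, PPP1R15A and EIF2AK3 each passed in 1 of 21, the replicate block described below. Another pseudocount (0.1 or 5), no trend and the rows as deposited left every count within 1.5 times and every direction as it was. Array weights, the 2 sides of the first component, HT29 SCR replicates 3 and 4 alone and SW480 without SCR replicates 2 and 3 bear on libraries that stand apart, and the last 2 of these settings were chosen after seeing the data. What limits the HT29 calls at 4 against 4 libraries was not tested, nor was the cause of any change below. Transcript levels say nothing about phosphorylation.

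The count of genes called in SW480 was 666 instead of 1011 with no filter on low values, where EIF2AK4 had a limma adjusted p of 0.0517. It was 3057 with array weights, 1993 with the side as a covariate, 0 within the first side (1520 at an unadjusted p under 0.05), 1939 within the second, and 502 without SCR replicates 2 and 3 together. Within the first side, which holds no siPOLR1D3 library, PPP1R15A was -2.12 (limma adjusted p = 0.314) and EIF2AK4 -0.31 (limma adjusted p = 0.583). Without SCR replicates 2 and 3 they were -1.54 (limma adjusted p = 0.00434) and -0.35 (limma adjusted p = 0.062). PPP1R15B passed at a value of 50 or more, with quantile normalization, array weights, both lines in one fit or the side covariate (limma adjusted p = 0.0136 to 0.0489). EIF2S1 passed in SW480 with array weights (limma adjusted p = 0.0166). The siPOLR1D3 calls of EIF2AK4 and EIF2S1 were lost with no filter, upper quartile or quantile normalization (limma adjusted p = 0.0608 to 0.0983). Between the siRNAs in SW480, 289 genes instead of 498 passed with no filter. For the difference between the lines it was 8 at a value of 50 or more and 9 with quantile normalization, instead of 5, and both lines in one fit gave 4 in HT29.

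Directions that turned belong to members that did not pass. In HT29, EIF2S1 was 0.0135 with upper quartile and 0.0142 with quantile normalization, and EIF2B3 was 0.0344 and 0.0316, and 0.0079 with array weights. EIF2AK4 was -0.0089 and EIF2B1 -0.0204 with array weights. With SCR replicates 3 and 4 alone EIF2AK4 was -0.15, EIF2B3 0.18 and EIF2B5 -0.0285, and the differences in the ratio of PPP1R15A to EIF2AK1, EIF2AK2, EIF2AK3 and EIF2AK4 were -0.55, 0.74, -0.18 and -0.48. With siPOLR1D2 in SW480, EIF2S1 was 0.0044 and 0.0037 under these 2 normalizations.

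Same-numbered SCR and silenced libraries had a mean correlation of -0.0302 in HT29 (-0.129 to 0.0339), after the mean of each arm was taken off. In SW480 it was -0.0853 (-0.413 to 0.573). The split of SW480 on the first principal component enters these correlations too. They therefore cannot tell whether same-numbered libraries belong together. HT29 SCR replicates 3 and 4 and SW480 SCR replicates 4 to 6 have no same-numbered silenced library, so each takes up its own block term. Under the block, comparisons with SCR therefore rest on HT29 SCR replicates 1 and 2 and on SW480 SCR replicates 1 to 3. In HT29 those 2 SCR libraries had the most PPP1R15A and EIF2AK3. The replicate block gave 735 genes in HT29, 8 with siPOLR1D2 and 23 with siPOLR1D3, 0 in SW480 (limma), 20 with siPOLR1D2, 39 between the siRNAs and 97 between the lines. With the block PPP1R15A was -3.11 in HT29 (limma adjusted p = 0.000881) and -2.10 in SW480 (limma adjusted p = 0.0865), EIF2AK3 in HT29 was -1.79 (limma adjusted p = 0.0162) and EIF2AK4 in SW480 -0.39 (limma adjusted p = 0.164). By siRNA in SW480 the block also ended the calls of PPP1R15A with siPOLR1D2 (-2.04, limma adjusted p = 0.0671) and of EIF2AK4 and EIF2S1 with siPOLR1D3 (limma adjusted p = 0.0844 and 0.0855), and in HT29 PPP1R15A passed with each siRNA (limma adjusted p = 0.0179 and 0.0231). It turned EIF2AK2 in HT29 to 0.42, EIF2AK1 in SW480 to -0.10 and the difference between the lines of PPP1R15A to 1.01.

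Leaving out 1 library at a time gave 0 to 1 genes in HT29 (1 without SCR 3 or siPOLR1D2 1), 0 to 2 with siPOLR1D3 (2 without siPOLR1D2 1), and 534 to 1283 in SW480. The SW480 count lay below 1011 by over 1.5 times, between 534 and 628, without SCR 3, SCR 4, SCR 6, siPOLR1D2 3 or any one siPOLR1D3 library. With siPOLR1D2 it was 446 to 1806 (lowest without siPOLR1D2 1, 584 and 721 without the others of that siRNA, 789 without SCR 4 and 800.0 without SCR 6). With siPOLR1D3 it was 119 to 1353 (119, 238 and 159 without siPOLR1D3 1, 2 and 3). Between the siRNAs it was 39 to 777 (280.0 or fewer without SCR 6, siPOLR1D2 1 or 2, or any one siPOLR1D3 library, and 777 without siPOLR1D2 3), and between the lines 2 to 17 (2 without HT29 SCR 2 or SW480 siPOLR1D2 1, 3 without SW480 SCR 4 or siPOLR1D2 2, 15 without HT29 SCR 3 and 17 without SW480 SCR 2). Between the siRNAs EIF2S1 passed without SCR 1 (limma adjusted p = 0.0484). The differences in the HT29 ratio of PPP1R15A to EIF2AK1, EIF2AK2 and EIF2AK4 ran from -2.24 to -1.25, -2.17 to -0.59 and -2.62 to -1.36 (lowest without SCR 3, highest without SCR 1, and for EIF2AK2 -0.78 without SCR 2), and in SW480 those to EIF2AK1 and EIF2AK4 from -2.31 to -1.87 and -1.88 to -1.42. Directions that turned were among HT29 EIF2AK4 (-0.0380 to 0.17), EIF2S1 (-0.17 to 0.03), EIF2B1 (-0.0092 to 0.15), EIF2B3 (-0.13 to 0.0726) and EIF2B5 (-0.0026 to 0.13), SW480 EIF2AK1 (-0.0090 to 0.14), EIF2S1 with siPOLR1D2 (-0.0697 to 0.0336) and the difference between the lines of PPP1R15A (-0.61 to 0.51).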
